A study of Homo sapiens with 2 samples.

Results

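The 10 genes described here encode carriers that move amino acids across the plasma membrane: the heavy chain SLC3A2 and its light chains SLC7A5, SLC7A6 and SLC7A11, the leucine carrier SLC43A1, the arginine carrier SLC7A1, the neutral amino acid exchangers SLC1A4 and SLC1A5, and the sodium-coupled carriers SLC38A1 and SLC38A2. They were chosen by name as carriers of cystine and of neutral and cationic amino acids, and all 10 of 10 were found among the 46425 gene symbols of the deposited table. RNA of NK92, an established human natural killer cell line, was sequenced from 2 dishes. Both were kept in Artemis-Medium 1 with 2% human serum. According to the methods, the cells were pre-incubated together for 18 h and only then divided equally between the 2 dishes, with fresh medium. The control dish then received nothing, and the other received 10 µg/mL of PPMX-T003, an antibody that blocks the transferrin receptor TfR1, for 6 h. There was 1 library per condition, with 46766416 counts in the control and 43178462 counts in the exposed library, so no value has a replicate check and no p-value is given. The table names its columns 0 h and 6 h, whereas the methods describe dishes cultured for the same time, and a difference in harvest time cannot be told apart from the exposure.

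Amino acid carriers supply protein synthesis and the glutathione pool, and through leucine and arginine they feed the mTORC1 pathway. Several of them work only as pairs: SLC3A2, the glycoprotein also called CD98 heavy chain, brings its light chains to the cell surface, where the light chain decides which amino acids are exchanged. Dividing lymphoid cells raise many of these carriers when they start to grow, and LAT1, the product of SLC7A5, is the carrier through which they take up most large neutral amino acids.

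The cells expressed the marker genes of their line. All 9 natural killer cell markers were above 3 counts in both libraries, with a summed level of 4040 CPM (counts scaled to library size) in the control and 4475 CPM after exposure, led by IL2RB at 1202 and 1298 CPM. The lowest of these 9 markers was FCER1G, at 2.12 and 1.99 CPM. Of 6 T cell markers, CD3D, CD3G, CD5 and CD8A were listed at 0, and the sum of 32.2 and 30.4 CPM came almost wholly from TRAC. CD3E, which natural killer cells can also express and which the list does not hold, had 19080 and 18942 counts, and CD28 had 2252 and 1803; both were named after their values were seen. PAX5, a B cell gene, had 169 and 78 counts, or 3.61 and 1.81 CPM, and was lower after exposure (log2 fold change -0.98, -1.40 to -0.60), while MS4A1, another B cell gene, was at 0. Whether this has a part in the results was not tested. The myeloid list summed to 5.06 and 4.54 CPM with ITGAM highest, and the 4 erythroid markers were at 0 in both libraries. Of the 4 myeloid markers, 2 in the control and 3 after exposure were above 3 counts.

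After 6 h of PPMX-T003, SLC7A11 and SLC38A2 RNA were lower and most of the other transporters stayed close to their control level. SLC7A11, which exchanges cystine for glutamate, was at 0.663 times the control level, and SLC38A2, a sodium-coupled carrier of small neutral amino acids, at 0.688 times. SLC38A1, the close relative of SLC38A2, followed at 0.849 times. The SLC3A2 heavy chain and the glutamine carrier SLC1A5 were within 4% of the control. A gene was counted as higher or lower when its log2 fold change was at least 0.32 in size. Of the 10 members, 2 passed this threshold downwards, as did 5.56% of the 11293 genes with at least 100 counts over both libraries, and 1 (SLC43A1, at a low count) passed it upwards, as did 4.88% of those genes. By 95% Clopper-Pearson intervals for how reads divide between the libraries, which cover counting error only, 6 members were below 0 on the log2 scale, against 27.2% of the genes, and 1 was above 0, against 24.6%. Such intervals narrow as counts rise, and most members had far more than 100 counts. These shares are thus not of genes of like level, for which none was computed. The members' median log2 fold change was -0.075, and that of all genes tested was -0.0035. On the deposited TPM the medians were -0.12 and -0.0083, and with the relation to GC content and transcript length removed -0.11 and -0.0016.

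**Figure D1:**
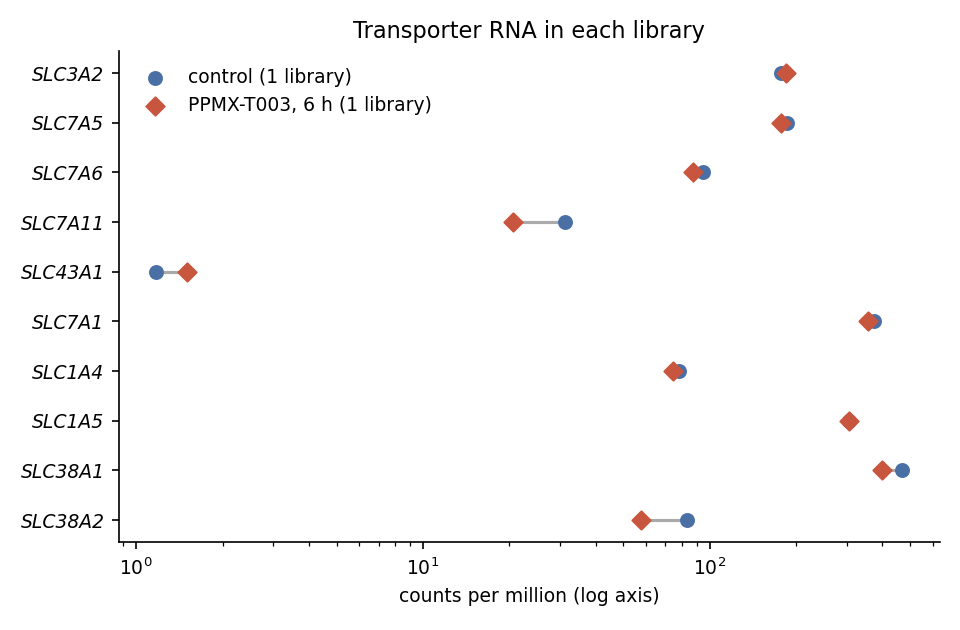
Level of each transporter in CPM on a log axis, in the control library (blue circles) and the library exposed to PPMX-T003 (red diamonds), 1 library each. The gap between the symbols is wide for SLC7A11 (31.2 and 20.7 CPM) and SLC38A2 (83.6 and 57.5 CPM), and for SLC1A5 (305 and 306 CPM) the symbols coincide.

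Levels of different genes were compared on the deposited TPM, which is scaled for transcript length and rounded to whole numbers. In the control the most abundant was SLC1A5 at 238 TPM, followed by SLC3A2 at 212, SLC38A1 at 133, SLC7A1 at 114 and SLC7A5 at 92. A group of moderate level came next, with SLC38A2 at 39, SLC1A4 at 38 and SLC7A6 at 35 TPM, and SLC7A11 at 7 and SLC43A1 at 1 closed the order. With 1 library per condition, neighbours as near as SLC38A2, SLC1A4 and SLC7A6 cannot be put in order. After exposure the first 5 places and the last 2 were held by the same genes, while SLC38A2 at 26 TPM was below SLC1A4 at 35 and SLC7A6 at 31. The 10 genes together held 1803 CPM in the control and 1665 CPM after exposure. Of this difference of -138 CPM, SLC38A1 alone gave -70.8 CPM and SLC38A2 -26.1 CPM.

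SLC3A2 (NCBI Gene ID 6520, chr11:62856109-62888860; all gene positions are from RefSeq on GRCh38.p14) encodes the heavy chain that SLC7A5, SLC7A6 and SLC7A11 share. It had 8301 counts in the control and 7942 after exposure, or 177 and 184 CPM, and 212 TPM in both libraries. In CPM its level was thus slightly higher after exposure, with a log2 fold change of 0.053 (0.0089 to 0.098), and the direction turned to -0.032 once the relation of fold change to GC content and length over all genes was removed. Changes in TPM ran lower than changes in CPM in general: among 6089 genes with at least 20 TPM in both libraries the log2 change in TPM differed from that in CPM by a median of -0.054.

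SLC7A5 (Gene ID 8140, chr16:87830023-87869507) encodes LAT1, which takes up leucine, methionine, phenylalanine and tryptophan in exchange for glutamine. Its counts were 8733 in the control and 7634 after exposure, or 187 and 177 CPM, and its TPM were 92 and 84. The exposed library was lower by a small margin, with a log2 fold change of -0.077 (-0.12 to -0.032). The value was -0.13 on the deposited TPM, -0.13 after the GC and length fit and -0.14 with the longest transcripts, all below this interval. SLC7A6 (Gene ID 9057, chr16:68264526-68301819), or y+LAT2, exports arginine in exchange for glutamine and sodium. It had 94.7 CPM in the control and 87.5 CPM after exposure, a log2 fold change of -0.11 (-0.18 to -0.051). The genes tested were divided by mean CPM into 5 bins of like level. SLC7A5 falls in the highest bin, where the central 95% of log2 fold changes ran from -0.28 to 0.21, and SLC7A6 in the next, where it ran from -0.30 to 0.23, so both light chains lay inside the range of genes of like level. No member shares exons with another gene on the same strand in GENCODE release 29, but SLC7A6OS, on the opposite strand, overlaps SLC7A6 and had 1547 and 1438 counts. The kit marks strand, but whether the counting used it is not given in the sources used here.

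SLC7A11 (Gene ID 23657, chr4:138164097-138242349) encodes xCT, the light chain of system xc-, which brings in cystine, the source of cysteine for glutathione. It had 1460 counts in the control and 892 after exposure, or 31.2 and 20.7 CPM, and 7 and 5 TPM. The exposed library was the lower one, with a log2 fold change of -0.59 (-0.72 to -0.47). Among genes of like level, those of the middle bin, the central 95% ran from -0.33 to 0.27, so SLC7A11 lay below it. It was number 133 from the lowest among the 11293 genes tested and number 23 among the 8359 genes with at least 1000 counts. SLC7A11 was the member that was at least 1.5-fold lower, as 1.22% of all genes tested were. The antisense gene SLC7A11-AS1 was listed at 0 in both libraries.

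Set against their shared heavy chain, SLC7A11 and SLC7A5 were lower before and after the fit, while for SLC7A6 the difference depended on the fit. The log2 fold change of SLC7A11 was below that of SLC3A2 by a difference of -0.65 (counting interval -0.78 to -0.52), and -0.33 after the GC and length fit or -0.34 when the fit took each gene's longest transcript. For SLC7A5 the difference from SLC3A2 was -0.13 (-0.19 to -0.068), and -0.094 and -0.10 after these fits. This interval covers counting error only. Over the 8359 genes with at least 1000 counts the log2 fold changes had a standard deviation of 0.16, so the SLC7A5 difference was within the ordinary spread between genes. For SLC7A6 it was -0.17 (-0.24 to -0.090), and -0.17 after the GC and length fit, but -0.0053 with the longest transcripts. SLC7A11 also lay below SLC7A5, by a difference of -0.52 (-0.64 to -0.39), and -0.24 after the fit. On the TPM scale the light chains summed to 134 in the control and 120 after exposure beside 212 of the heavy chain, so that the ratio of heavy to light chain RNA went from 1.58 to 1.77. SLC7A5 made up 68.7% of light chain RNA in the control and 70% after exposure, SLC7A6 26.1% and 25.8%, and SLC7A11 5.22% and 4.17%. The other partners of SLC3A2 hardly appeared: SLC7A7 had 0 and 8 counts, SLC7A8 0 and 6, and SLC7A10 was listed at 0.

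SLC43A1 (Gene ID 8501, chr11:57484534-57515702), or LAT3, carries leucine and other branched-chain amino acids without a heavy chain. It was the least expressed member, with 55 counts in the control and 65 after exposure, or 1.18 and 1.51 CPM, and 1 TPM in both. Its log2 fold change of 0.35 passed the threshold, but the interval from -0.18 to 0.90 holds 0, so no difference was detectable at this depth. SLC7A1 (Gene ID 6541, chr13:29509414-29595688), or CAT1, is the main uptake route for arginine and lysine. It had 17559 counts in the control and 15383 after exposure, or 375 and 357 CPM, and a log2 fold change of -0.074 (-0.10 to -0.042). The value was -0.12 on the deposited TPM and -0.039 after the fit on the longest transcripts, both outside this interval. The exposed library was lower by more than counting error, and the difference was small beside the spread of genes of like level.

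SLC1A4 (Gene ID 6509, chr2:64988479-65023865), or ASCT1, exchanges alanine, serine and cysteine. It had 78.0 CPM in the control and 74.7 CPM after exposure, and the interval of its log2 fold change, -0.063 (-0.13 to 0.0061), holds 0. SLC1A5 (Gene ID 6510, chr19:46774883-46788594), or ASCT2, brings in glutamine. It had 14275 counts in the control and 13217 after exposure, or 305 and 306 CPM, and its log2 fold change was 0.0062 (-0.028 to 0.040), with a sign that turned to -0.0036 under median-of-ratios scaling, -0.049 on the deposited TPM, -0.067 after the GC and length fit and -0.097 with the longest transcripts. In scaled counts neither ASC carrier differed between the libraries beyond counting error, though the last 3 of these SLC1A5 values lie below its interval. The difference between the ASC carriers, -0.069 (-0.15 to 0.0076), was not detectable, and it turned to 0.027 with the longest transcripts.

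SLC38A1 (Gene ID 81539, chr12:46183063-46269043), or SNAT1, takes up glutamine together with sodium. It had 21985 counts in the control and 17214 after exposure, or 470 and 399 CPM, and 133 and 109 TPM. The exposed library was lower, with a log2 fold change of -0.24 (-0.26 to -0.21), short of the threshold and inside the central 95% of the highest bin. SLC38A2 (Gene ID 54407, chr12:46358188-46372773), or SNAT2, carries alanine, serine, proline and glutamine, and its gene is known to respond to amino acid supply. It had 3912 counts in the control and 2481 after exposure, or 83.6 and 57.5 CPM, and 39 and 26 TPM. The exposed library was again the lower one, with a log2 fold change of -0.54 (-0.61 to -0.47), below the central 95% of genes of like level (-0.30 to 0.23). SLC38A2 was number 160 from the lowest among the genes tested and number 25 among those with at least 1000 counts. The difference between SLC38A2 and SLC38A1 was -0.30 (-0.38 to -0.23), and -0.26 after the GC and length fit. The pair lies side by side on chromosome 12 with 89.1 kb and 1 non-coding gene between them, so neighbouring genes of related function were both lower, to unequal extents.

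**Figure D2:**
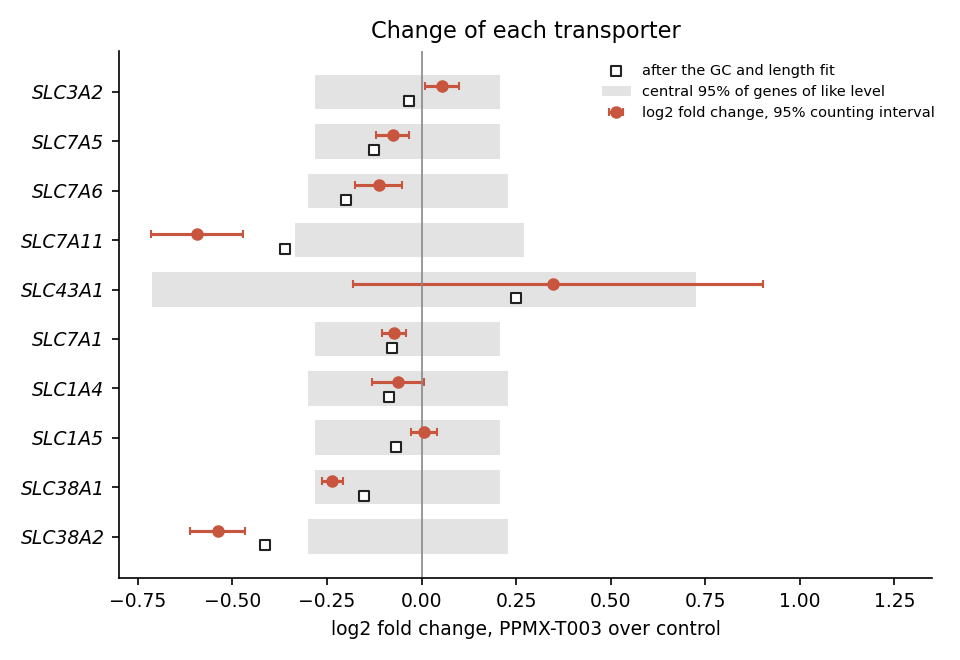
Log2 fold change of each transporter, PPMX-T003 over control (red points with the 95% counting interval), the value after the GC and length fit (open squares), and the central 95% of all genes of like mean CPM before the fit (grey bars). The red points of SLC7A11 and SLC38A2 lie below their grey bars.

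Base composition moved with these differences. Over the 94.9% of tested genes with a known GC content, fold changes were lower in genes poor in GC. When the genes were divided by GC content into 10 bins, the lowest bin (31.8% to 39.9% GC) had a median log2 fold change of -0.13 and a central 95% from -0.48 to 0.17, and 9.88% of its genes passed the threshold downwards. SLC7A11, with a GC content of 35.4%, and SLC38A2, with 38.1%, belong to this bin, and both lay below its central range. SLC7A11 was at -0.47 and SLC38A2 at -0.41 relative to the median of the bin. After a robust fit on GC content and transcript length was removed, SLC7A11 was at -0.36 and SLC38A2 at -0.41, numbers 346 and 244 from the lowest of 10722 genes. Among genes of like level the central 95% after the fit began at -0.28 for SLC7A11 and at -0.25 for SLC38A2, so both lay below it. SLC38A1, with 42.3% GC, was at -0.15 after the fit, and at -0.099 when the fit took each gene's longest transcript in place of the median one. The other members have 54.8% to 60.3% GC, where the medians of the bins were above 0, and after the fit SLC7A5 was at -0.13, SLC7A6 at -0.20 (-0.048 with the longest transcripts), SLC7A1 at -0.079, SLC1A4 at -0.086, SLC1A5 at -0.067 and SLC43A1 at 0.25. The GC content taken for SLC7A6, 55.1%, is a median over transcripts whose median length is 573 bases. Its longest transcript, of 6308 bases, has 47.0% GC, and the bin whose range holds this value had a median of -0.025. What part base composition has in the lower values was not tested beyond these fits.

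Promoter windows from 250 bases before to 50 after each start site (RefSeq, GRCh38.p14) were matched for 9 of the 10 members, 16 windows in all, since some genes have several starts. SLC7A11 had no entry. The windows of SLC38A2, the matched member with the lowest fold change, and of SLC7A5, whose product carries leucine, are shown from 250 bases before the start to the base next to it, read 5′ to 3′ on the gene's strand. SLC38A2 lies at chr12:46372774-46373023 and SLC7A5 at chr16:87869508-87869757, both on the minus strand. Capitals mark CACGTG, the E-box to which MYC and related factors are known to bind, which SLC7A5 has 130 bases before its start.
SLC38A2: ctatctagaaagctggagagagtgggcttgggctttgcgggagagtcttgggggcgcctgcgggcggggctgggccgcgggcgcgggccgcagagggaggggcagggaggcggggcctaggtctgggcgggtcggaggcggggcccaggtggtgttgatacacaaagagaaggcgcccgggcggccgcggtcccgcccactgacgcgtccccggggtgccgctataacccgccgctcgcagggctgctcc
SLC7A5: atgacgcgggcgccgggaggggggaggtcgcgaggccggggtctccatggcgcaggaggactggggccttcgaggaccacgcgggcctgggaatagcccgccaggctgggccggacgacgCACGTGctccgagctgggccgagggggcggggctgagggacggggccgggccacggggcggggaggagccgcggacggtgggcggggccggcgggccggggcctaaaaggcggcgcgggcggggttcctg
Both promoters are rich in GC, with 73.6% in SLC38A2 and 79.6% in SLC7A5. CACGTG was in a window of 3 members, SLC7A5, SLC1A5 and SLC43A1. It was in 7.26% of all 35116 windows of the table and, by gene, in at least 1 window of 8.77% of genes.

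The letters TGATGNAA, the core of the composite element to which ATF4 is known to bind with C/EBP partners, were searched on both strands. They were in 1 window each of 5 members, SLC38A1, SLC7A1, SLC1A4, SLC1A5 and SLC3A2, and in 3.62% of all windows; by gene, 1217 of 27305 genes, or 4.46%, had them in at least 1 window. The matches are shown because they stand in carriers of several classes, in 30 bases of the gene's strand with the match in capitals. SLC38A1 is at chr12:46266502-46266531 and SLC7A1 at chr13:29595663-29595692, both on the minus strand, SLC1A4 at chr2:64989381-64989410 on the plus strand, SLC1A5 at chr19:46784893-46784922 on the minus strand and SLC3A2 at chr11:62881719-62881748 on the plus strand.
SLC38A1: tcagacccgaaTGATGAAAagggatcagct
SLC7A1: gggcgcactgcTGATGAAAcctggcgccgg
SLC1A4: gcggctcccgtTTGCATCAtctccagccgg
SLC1A5: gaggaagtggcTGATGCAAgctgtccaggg
SLC3A2: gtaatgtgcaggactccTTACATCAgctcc
In SLC1A4 and SLC3A2 the match is on the opposite strand and reads TTGCATCA and TTACATCA here. The match begins 4 bases before the start in SLC38A1, 7 in SLC1A4 and 97 in SLC1A5, and at base 8 after the start in SLC7A1 and base 38 in SLC3A2. SLC38A2 has none of these letters in its window. The antioxidant response letters TGACNNNGC were in windows of 5 members (SLC3A2, SLC7A5, SLC7A1, SLC7A6 and SLC1A5) and in 13.3% of all windows, or 16.1% of genes. Matches of different motifs shared no base. A match describes the letters and not a bound site.

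Of 11 genes known to regulate these carriers, 10 had at least 100 counts, 8 of them above 0 and 2 below on the log2 scale, where 5558 of all genes tested were above and 5735 below. After the GC and length fit 6 were above and 4 below. Of these 10 only NEDD4L passed the threshold, upwards, and the list's median log2 fold change was 0.099, or 0.044 after the fit. EIF2AK4, the kinase that senses uncharged tRNA, was listed at 0 in both libraries. NEDD4L, a ubiquitin ligase of membrane carriers and channels, had 280 counts in the control and 326 after exposure and was higher after exposure (0.33, 0.10 to 0.57). BACH1, a repressor of antioxidant genes, had 1277 and 951 counts and was lower (-0.31, -0.43 to -0.19), short of the threshold. ATF4, which drives carrier genes when amino acids are short, had 348 and 327 CPM (-0.089, -0.12 to -0.057; -0.14 after the fit). MYC had 306 and 346 CPM (0.18, 0.15 to 0.21), which became 0.089 after the fit. KEAP1, the brake on NFE2L2, had 168 and 190 CPM (0.17, 0.13 to 0.22), which became 0.045. NFE2L2 itself had 78.7 and 80.2 CPM (0.028, -0.039 to 0.095), which became 0.055. Another annotated gene shares exons with BACH1 on the same strand, and another with NFE2L2, which makes these counts uncertain. TFRC, which encodes TfR1, had 407 and 422 CPM (0.052, 0.023 to 0.082), a difference that was larger after the fit (0.17), and 184 TPM in both libraries.

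Of 22 other plasma membrane amino acid carriers, 19 had fewer than 100 counts and 15 of these had no more than 3. The median of the other 3 was 0.049, and it turned to -0.048 after the fit, with 1 past the threshold downwards and 0 upwards. SLC6A6, the taurine carrier, was lower: it had 5701 counts in the control and 3334 after exposure, or 122 and 77.3 CPM, a log2 fold change of -0.66 (-0.72 to -0.59). That is below every member, and with 53.5% GC its value after the fit was -0.71. SLC38A5, another glutamine carrier, had 229 and 237 CPM (0.049, 0.010 to 0.089), and at 274 and 276 TPM it was more abundant than SLC1A5. The sign of its difference turned to -0.048 after the fit. The last, SLC43A2, or LAT4, had 125 and 131 counts, with no detectable difference (0.18, -0.18 to 0.55; 0.11 after the fit).

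Of 16 lysosomal and mitochondrial carriers, 15 had at least 100 counts, 3 passed the threshold upwards and 0 downwards, with a median of 0.018. After the GC and length fit 2 passed it upwards, where 3.42% of all genes did, and the median was -0.015. SLC25A29, a mitochondrial carrier of basic amino acids, had 197 and 360 counts (0.98, with a lower bound of 0.73), and another annotated gene shares exons with it on the same strand, which makes its count uncertain. SLC66A1, which exports basic amino acids from lysosomes, had 168 and 250 counts (0.68, 0.40 to 0.98). CTNS, which exports cystine from lysosomes, had 223 and 271 counts (0.40, 0.14 to 0.66), but it was short of the threshold after the fit (0.31). Its TPM was 3 in both libraries, though rounding to whole numbers could hide a rise of this size. These counts are low: in the bin with the lowest mean CPM, which holds all 3 and NEDD4L, the central 95% ran from -0.71 to 0.72 and 17.4% of genes passed the threshold upwards, so SLC66A1, CTNS and NEDD4L lay within the range of genes of like level and SLC25A29 above it.

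Of the genes with at least 100 counts that sense or use the carried amino acids, 0 passed the threshold in either direction, against 4.88% of all genes tested upwards and 5.56% downwards. These shares depend on level: they were 17.4% and 15.7% in the lowest of the 5 bins and 0.221% and 1.68% in the highest. The genes of the 2 lists are spread from the lowest bin to the highest, so none of these shares is of like level for all of them. For amino acid sensing by mTORC1, 23 of 26 genes had enough counts, with a median of 0.055, or 0.024 after the fit. MLST8 had 59.7 and 72.9 CPM (0.29, 0.22 to 0.36; 0.16 after the fit), LAMTOR1 69.1 and 83.0 CPM (0.26, 0.19 to 0.33) and SESN1, of the sestrin family of amino acid sensors, 14.3 and 11.8 CPM (-0.28, -0.45 to -0.11). For methionine and cysteine use, 16 of 18 genes had enough counts, with a median of -0.044, or -0.0031 after the fit. ODC1, the first enzyme of polyamine synthesis, had 624 and 711 CPM (0.19, 0.16 to 0.21), AMD1 254 and 222 CPM (-0.19, -0.23 to -0.15; -0.055 after the fit) and MAT2A, which makes S-adenosylmethionine, 512 and 550 CPM (0.10, 0.078 to 0.13).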

How the data were processed

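According to the methods and the submitters' notes, the authors trimmed reads with Trimmomatic 0.38, mapped them with HISAT2 2.2.0 to hg38, counted them with StringTie 2.1.3b and named edgeR 3.17 for the comparison. The deposited read counts are whole and unscaled, and commas inside the larger numbers were removed. TPM and FPKM, deposited as whole numbers after rounding by the authors, were handled as a score, and FPKM went unused.

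The counts were scaled by the trimmed mean of M-values (trimming 30% by log ratio and 5% by level; both factors 1.00) and turned into log2 CPM ratios with a prior count of 2. Computations used statsmodels 0.14.6, scipy 1.17.1, pandas 2.3.3 and numpy 2.4.6 under Python 3.11.15 and were tested on simulated data. Genes with at least 100 counts over both libraries were tested. At most 3 counts were taken as not detected, which is 0.0641 CPM in the control and 0.0695 CPM in the exposed library. Values in brackets are 95% Clopper-Pearson intervals, or for differences between genes normal intervals of the log ratio of counts. They cover neither differences between dishes nor the way StringTie divides shared reads. GC content and length are medians over each gene's transcripts in GENCODE release 29. The fit on both was robust (Huber), over the genes tested.

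Named genes are all members, and of each other list those past the threshold and the 3 with the interval bound farthest from 0 among genes tested, with ATF4, MYC, NFE2L2 and TFRC. EIF2AK4 and the SLC3A2 partners SLC7A7, SLC7A8 and SLC7A10 are named as well, though their counts were too low to be tested. The members, the lists and the threshold were chosen with earlier results of these data known. Other scalings, prior counts, count minimums, thresholds, the deposited TPM and the GC and length fit were tried as alternatives. Identity between the members' proteins was planned and is not analysed here. The sum of 1 further marker list and 1 overlap with a neighbouring gene are not reported here.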

Additional observations from a re-analysis of the deposited data

How the results depend on the processing

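No paired analysis was possible because a single library stands on either side. The count of 2 members past the threshold downwards was 2 under the other scalings, prior counts and count minimums, the deposited TPM and both fits. The share of all genes lower was 5.15% to 6.01% under the other scalings and prior counts, 6.72% on TPM, 4.12% after the GC and length fit, 3.91% with the longest transcripts, and 3.22%, 9.48% and 17.7% with at least 500, 20 and 1 counts. With a threshold of 1.1-fold 3 members were lower (22.4% of all genes tested), with 1.5-fold 1 (1.22%), and with 2-fold 0 (0.195%). The 1 member that was higher, SLC43A1, has few counts: 0 members were higher among genes with at least 500 counts, with the deposited TPM, after the GC and length fit, after a fit on the longest transcripts (chosen after seeing the data), and at 1.5-fold and 2-fold. The share of all genes higher was 2.00%, 4.05%, 3.42%, 3.32%, 1.15% and 0.230% in that order. SLC43A1 had 120 counts over both libraries, 1 TPM in each and a log2 fold change of 0.35. For this gene only the fits could therefore have given another outcome. With a threshold of 1.1-fold 1 member was higher, as were 20.3% of all genes tested. SLC3A2 turned from 0.053 to -0.032 after the GC and length fit and to -0.043 after the fit on the longest transcripts. Over all alternatives SLC7A11 lay between -0.60 and -0.36, SLC38A2 between -0.57 and -0.41 and SLC38A1 between -0.28 and -0.099. Count minimums cannot move the value of a single member. Of 80 values of single members under the other alternatives, 59 stayed within the counting interval, 19 left it and 2, those of SLC3A2, reversed a sign that the counts had called. SLC1A5, whose sign was not called, is among the 19 with -0.049 on the deposited TPM, -0.067 after the GC and length fit and -0.097 after the fit on the longest transcripts. SLC43A1 has no value among genes with at least 500 counts.

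Medians of lists were taken as moved when they changed by over 0.05. The median of the other plasma membrane carriers was -0.30 with at least 500 counts, or with at least 1 count, -0.048 after the GC and length fit and -0.031 after the fit on the longest transcripts. That of the regulators was 0.040 with the deposited TPM, 0.044 after the GC and length fit and 0.038 after the fit on the longest transcripts. That of mTORC1 sensing was 0 with the deposited TPM and 0.0031 after the fit on the longest transcripts. Smaller moves were seen for methionine and cysteine use (-0.0031 after the GC and length fit, -0.093 with the deposited TPM), the lysosomal and mitochondrial carriers (-0.015 after that fit) and mTORC1 sensing (0.024 after that fit). The cause was not tested.

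With 1 library on either side, the spread between dishes is unknown. RNA levels say nothing of carrier protein or transport.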
